A study of Mus musculus with 9 samples.

Results

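The 74 long intergenic noncoding RNAs (lincRNAs) expressed in naïve mESCs or primed mEpiSCs are described here across 9 RNA-seq libraries. They were chosen by their measured level, as the genes that GENCODE M21, a mouse gene annotation, types as lincRNA and that reached a mean of at least 5 CPM (counts scaled to the column total) in at least 1 of 4 groups. The groups are naïve P5, primed P5, naïve P15 and primed P15, and 74 of the 5467 lincRNAs in the table qualified, whereas 2552 of them had a count in any library. A further 3 imprinted lincRNAs reached the level and were left out. Naïve mESCs are mouse embryonic stem cells that resemble the preimplantation embryo. Here they came from the OG2 line, derived from C57 x CBA mice that carry GFP under the distal *Oct4* promoter, and grew in serum and LIF (S/L medium). Primed mEpiSCs, which resemble the epiblast after implantation, were converted from the same line in medium with bFGF and Activin A (F/A medium). Both states grew on mitomycin C-treated embryonic fibroblasts (MEFs) as feeder cells, and 2 libraries were made for each state after 5 (P5) and after 15 passages (P15). A further library was made from MEFs of the same strain. All groups of naïve and primed cells share the reporter, the feeder cells and a single parental line, and the labels do not say that the 2 libraries of a group came from separate cultures, so that p-values measure the spread between these libraries, which may be technical.

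LincRNAs are transcribed from their own promoters between protein-coding genes, and most are capped, spliced and polyadenylated like messenger RNAs. Some act as scaffolds in the nucleus, such as *Malat1* in nuclear speckles, *Neat1* in paraspeckles and *Xist* on the inactive X chromosome. Others are known as hosts of small nucleolar RNAs (snoRNAs) or microRNAs that are cut from their introns, or for their effect on a neighbouring gene, and the *Platr* genes (pluripotency-associated transcripts) and *Lncenc1* are known for their expression in embryonic stem cells.

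Each naïve or primed library had 14378051 to 20985136 counts, and the MEF library had 25646547. Together the 74 lincRNAs made up 0.141% to 0.245% of the counts, and the 5 highest of them held 50.3% to 62.9% of that. Levels below are CPM after TMM scaling, computed with the 9 libraries together, and an empty cell of the table allows up to 3 counts, or 0.148 to 0.221 CPM by naïve or primed library, which covers counting error only. Naïve markers such as *Esrrb* and *Klf4* summed to 2542 CPM at P5 and 2148 CPM at P15 in naïve cells and to 242 and 114 CPM in primed cells. Primed markers such as *Fgf5* and *Otx2* summed to 75.2 and 52.4 CPM in naïve cells and to 799 and 865 CPM in primed cells, both in the direction of the labels. All 30 fibroblast markers examined had counts in every naïve and primed library, and their sum was 11124 CPM in naïve P5, 6961 CPM in primed P5, 18503 CPM in naïve P15, 16480 CPM in primed P15 and 87466 CPM in MEFs. The median marker stood at 18.02% to 28.1% of its MEF level, by CPM of the column total without TMM scaling. Single markers ranged widely, from 2.77% to 391% of their MEF level in primed P15 replicate 2, so that the median is a rough measure of the feeder share. In an alternative, that median share of the MEF counts was taken off each library. It was 20.2% and 21.3% in the naïve P15 libraries and 27.9% and 28.1% in the primed P15 libraries. The size of a change under this setting depends on the share chosen. In bulk libraries of this kind, fewer cells of a type and less RNA per cell cannot be told apart.

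Of the 74 lincRNAs, 47 had a promoter window in RefSeq (GRCm38.p6, 250 bases before to 50 after the annotated start). A feature that the choice of members did not use is the CpG ratio, the observed number of CpG dinucleotides in the window over the number that its C and G content predicts, which is high in CpG island promoters. The first 4 windows below belong to lincRNAs that were lower in primed cells at both passages and hold few or no CpG, and the next pair belongs to broadly expressed lincRNAs with many CpG. All are written 5′ to 3′ along the transcript's strand with each CpG in capitals.
*Gm46332* (chr12:4569524-4569823, minus strand): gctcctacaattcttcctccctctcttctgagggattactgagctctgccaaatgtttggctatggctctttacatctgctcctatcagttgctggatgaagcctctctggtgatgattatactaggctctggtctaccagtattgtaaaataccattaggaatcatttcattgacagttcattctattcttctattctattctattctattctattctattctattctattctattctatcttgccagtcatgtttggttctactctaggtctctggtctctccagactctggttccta
*2400006E01Rik* (chr3:41528425-41528724, minus strand): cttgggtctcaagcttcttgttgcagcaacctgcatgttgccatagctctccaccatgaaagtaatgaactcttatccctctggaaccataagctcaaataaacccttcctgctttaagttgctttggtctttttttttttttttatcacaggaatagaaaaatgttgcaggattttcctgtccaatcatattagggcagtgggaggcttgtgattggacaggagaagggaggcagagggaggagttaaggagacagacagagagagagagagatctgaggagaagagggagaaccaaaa
*Platr10* (chr3:75655682-75655981, minus strand): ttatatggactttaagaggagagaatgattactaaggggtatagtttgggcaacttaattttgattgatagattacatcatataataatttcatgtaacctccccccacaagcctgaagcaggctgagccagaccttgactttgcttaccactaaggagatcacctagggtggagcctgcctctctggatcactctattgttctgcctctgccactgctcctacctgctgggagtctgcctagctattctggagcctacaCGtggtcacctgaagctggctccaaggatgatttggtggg
*Lncenc1* (chr13:97434720-97435019, plus strand): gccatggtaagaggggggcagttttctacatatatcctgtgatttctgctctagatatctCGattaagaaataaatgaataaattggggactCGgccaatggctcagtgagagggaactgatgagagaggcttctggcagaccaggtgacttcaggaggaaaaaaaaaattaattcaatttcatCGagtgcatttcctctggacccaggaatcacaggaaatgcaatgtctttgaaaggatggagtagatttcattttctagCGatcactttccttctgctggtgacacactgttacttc
*1700020I14Rik* (chr2:119594046-119594345, plus strand): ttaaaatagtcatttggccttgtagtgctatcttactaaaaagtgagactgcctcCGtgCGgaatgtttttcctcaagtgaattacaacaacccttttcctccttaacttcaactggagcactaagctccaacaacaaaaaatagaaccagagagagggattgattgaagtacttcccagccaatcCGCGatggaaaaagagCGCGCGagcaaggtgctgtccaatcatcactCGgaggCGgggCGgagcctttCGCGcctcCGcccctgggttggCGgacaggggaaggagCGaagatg
*Snhg12* (chr4:132308428-132308727, plus strand): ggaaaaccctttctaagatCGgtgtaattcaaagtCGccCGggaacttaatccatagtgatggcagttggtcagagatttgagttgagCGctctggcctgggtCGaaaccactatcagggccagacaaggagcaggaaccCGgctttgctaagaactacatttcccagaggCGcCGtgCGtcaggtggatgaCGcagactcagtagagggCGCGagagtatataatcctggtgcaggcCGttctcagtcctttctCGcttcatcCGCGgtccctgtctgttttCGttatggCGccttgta

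These windows held 0, 0, 1 and 4 CpG in the naïve-high lincRNAs, against 15 in *1700020I14Rik*, which RefSeq names *Oip5os1*, and 18 in *Snhg12*, a snoRNA host. *Snhg12* was itself called lower in primed cells at P15 and was lower by less than 2-fold at P5 (log2 fold change -0.42). The pair thus does not stand for lincRNAs that were unchanged between states. Among the 17 promoters of lincRNAs called lower in primed cells at P5 the median CpG ratio was 0.31, and 13 of the 17 were under 0.5. Among the 27 promoters of lincRNAs that were not called at P5 the median was 0.65, and 10 of them were under 0.5. The 3 promoters of lincRNAs called higher had a median of 0.17, with 2 of them under 0.5. A low ratio was thus not limited to the lincRNAs called lower. The median was 0.38 over all 32851 RefSeq promoters and 0.24 over the 11588 promoters of RefSeq lncRNAs. These medians are a description with no test. A narrower set kept the 31 windows whose RefSeq start lay within 100 bases of the GENCODE start. Its medians were 0.31 for 14 lower lincRNAs, 0.67 for 2 higher ones and 0.77 for 15 that were not called. Over all 17 windows of lower lincRNAs, those of *1700001L05Rik* and *Gm36445* had a CpG ratio of at least 0.6. Only *1700001L05Rik* was also in the narrower set.

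**Figure D1:**
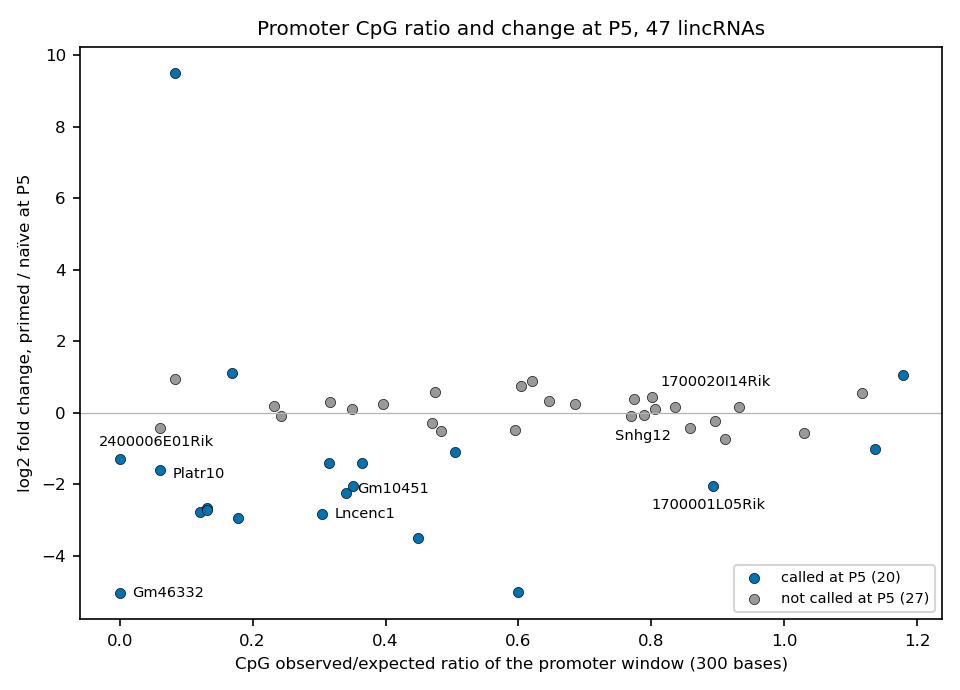
CpG observed-to-expected ratio of the promoter window (x axis) against the log2 fold change between primed and naïve cells at P5 (y axis) for the 47 lincRNAs with a RefSeq promoter. Each point is a lincRNA, blue where it was called at P5 and grey where not. Under a ratio of 0.5 lie 13 of the 17 lincRNAs called lower, 2 of the 3 called higher and 10 of the 27 that were not called.

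The letters ATGCAAAT, the octamer bound by POU factors such as OCT4, were in 4 of the 47 windows (8.51%) on either strand, against 1.74% of all RefSeq promoters. The 4 are *Gm10451*, *Gm20939*, *Tmem250-ps* and *Gm32856*, of which the first 2 were called lower in primed cells at P5 and the others were not called, the last 3 being chosen for mention once the values were known. The longer OCT4-SOX2 composite motif and the ESRRB letters TCAAGGTCA were in none of the 47, and they were in 0.0365% and 0.423% of all promoters. GGATTA, the core letters bound by OTX2, were in 14.9% of the members' windows and in 7.06% of all. *Gm10451* is shown because it carries the octamer and lost all its counts in late primed cells. The octamer is in capitals and starts at base 213 of the window, ahead of the annotated start.
*Gm10451* (chr12:76444247-76444546, plus strand): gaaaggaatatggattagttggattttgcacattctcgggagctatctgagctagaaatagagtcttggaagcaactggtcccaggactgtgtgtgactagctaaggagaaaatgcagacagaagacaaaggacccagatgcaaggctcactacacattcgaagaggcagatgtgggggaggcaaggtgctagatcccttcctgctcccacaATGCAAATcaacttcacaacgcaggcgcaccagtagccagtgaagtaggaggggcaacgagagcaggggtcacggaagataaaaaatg

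Levels were compared between genes as CPM per kb of merged exons. The highest was *Gm42047* (chr8:121833247-121841178, plus strand), with 84.1 CPM per kb in primed P5, followed by *Gm26917* with 83.3 in naïve P5 and *Epb41l4aos*, a snoRNA host with short exons, with 78.004 in naïve P15. *Lncenc1* (chr13:97434970-97497007, plus strand) reached 69.7 CPM per kb in naïve P5, *2900097C17Rik* (chr2:156388065-156392979, minus strand) 63.3 in primed P15, *Platr10* 56.1 in naïve P15, *Malat1* 53.3 in primed P5 and *Gm46332* 46.9 in naïve P15. *Gm26917* lies at a locus on chromosome 17 that holds a copy of the ribosomal RNA repeat, and how the authors counted reads with several alignments is not given in the sources used here, so that its values are uncertain. *Gm42047* lies inside the coding gene *Gm20388* on the same strand, and RefSeq places a protein-coding gene over its span. It does so over at least 50 percent of the span of 17 of the 74 members (23.0%). The share was 20.1% among the other 343 lincRNAs that were tested and annotated. The library kit does not mark strand. By the threshold of 5 CPM, 31 lincRNAs passed in all 4 groups, 20 passed in naïve groups only and 10 in primed groups only. Just inside it were *4632404H12Rik* at 5.06 CPM, *Platr3* at 5.14 and *Gm36445* at 5.16, and just outside were *Ftx* at 4.98, *Bvht* at 4.80 and *Gm47469* at 4.77.

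**Figure D2:**
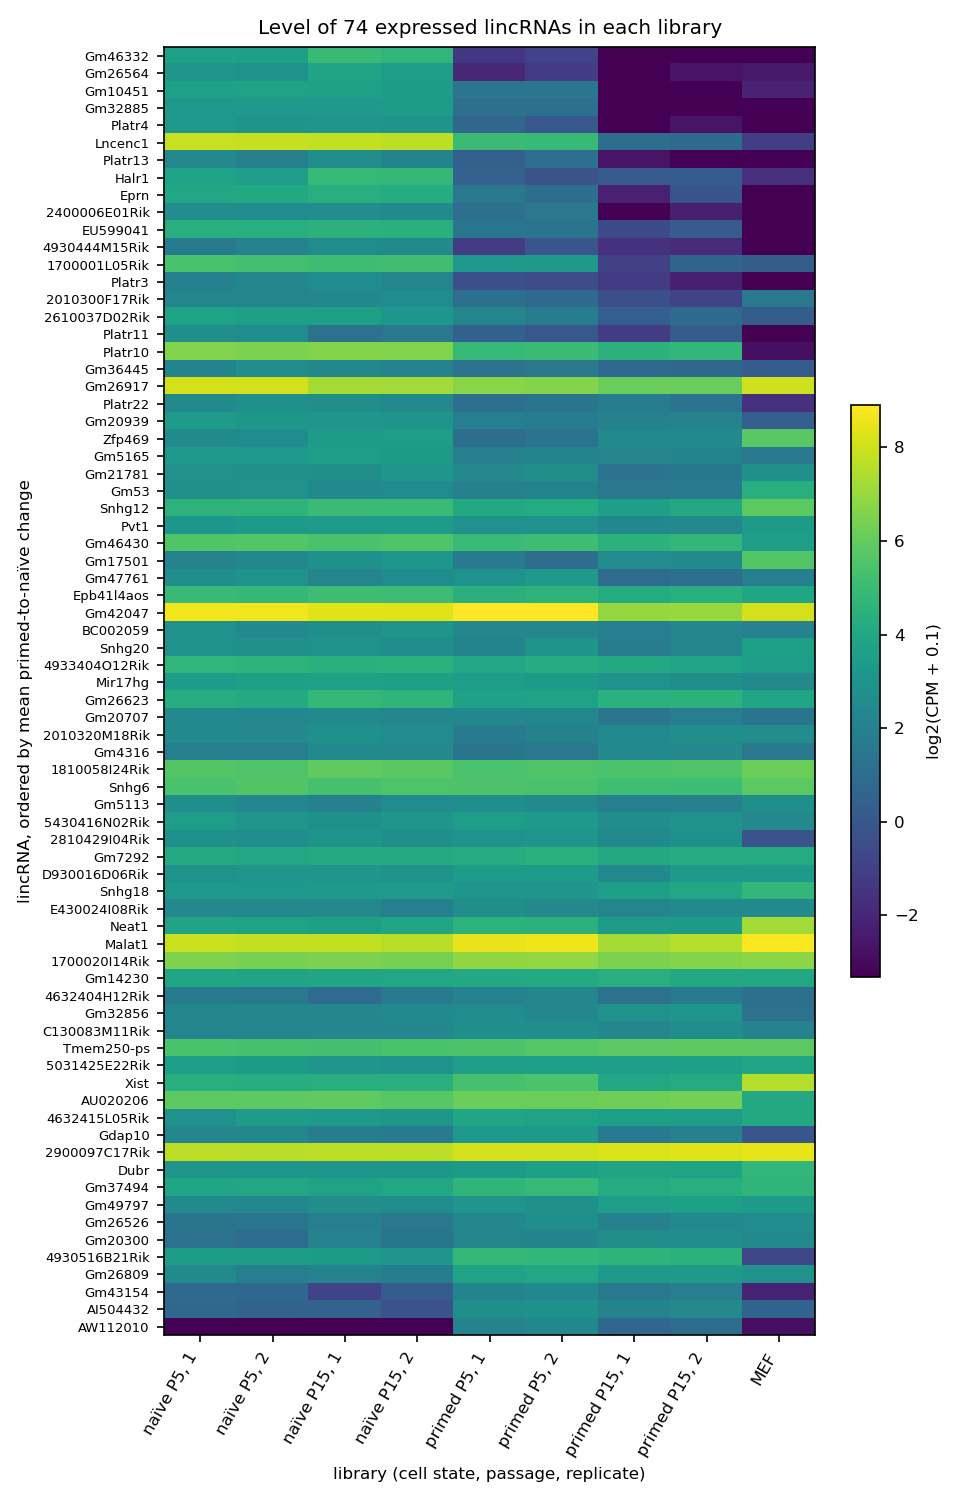
Level of the 74 lincRNAs (rows, ordered by the mean log2 fold change between primed and naïve cells over both passages) in the 9 libraries (columns), as log2(CPM + 0.1). The upper rows are bright in the 4 naïve libraries, dim in primed P5 and darkest in primed P15 and MEFs, whereas most rows below them differ little between states, and the last 5 rows are brighter in the primed libraries.

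The states were then set against each other within each passage with the quasi-likelihood test of edgeR. Calls required a change of 2-fold or more and an adjusted p under 0.01. At P5, 32 of the 74 lincRNAs were called, 24 lower and 8 higher in primed cells. Of all 16482 genes tested, 22.3% were called in either direction, 8.85% lower and 13.5% higher. At P15, 27 were lower and 5 were higher, against 11.0% and 12.2% of the 15733 genes tested and 23.2% in either direction. The median log2 fold change of the 74 was -0.15 at P5 and -0.47 at P15, beside 0.01 and -0.0039 over all genes tested. Since a gene could enter the list through a single group, 22 of the 24 lincRNAs lower at P5 and 22 of the 27 lower at P15 were not at 5 CPM in all 4 groups, and these counts describe the list rather than test it. The less abundant lincRNAs, outside the list, were called lower in 57 and higher in 46 of 310 tested at P5, and lower in 68 and higher in 27 of 236 tested at P15. With scaling by library size alone, the median over all genes moved to 0.21 at P5 and the members' median to 0.05, so that the sign of the members' median at P5 depended on the scaling while its distance from all genes was similar.

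At both passages the same 22 lincRNAs were lower and the same 5 were higher, and none was called in opposite directions. The share of all genes called at both passages is not given here, so these counts do not set lincRNAs apart from other genes. Of the 22, primed P5 cells kept a median of 22.2% of the naïve level (range 2.95% to 48.7%), and primed P15 cells kept 3.57% (range 0% to 48.3%). A total of 7 of the 22 had at most 3 counts over both primed P15 libraries, and 20 were lower in primed P15 than in primed P5. In MEFs, 18 of the 22 stood at less than 10% of their highest naïve or primed group and 13 had at most 3 counts. The 4 with more in MEFs were *2010300F17Rik*, *Gm26917*, *Gm36445* and *Gm5165*, and the 2 that were not lower in primed P15 than in primed P5 were *Gm5165* and *Platr22*, some of them named after their values were seen.

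**Figure D3:**
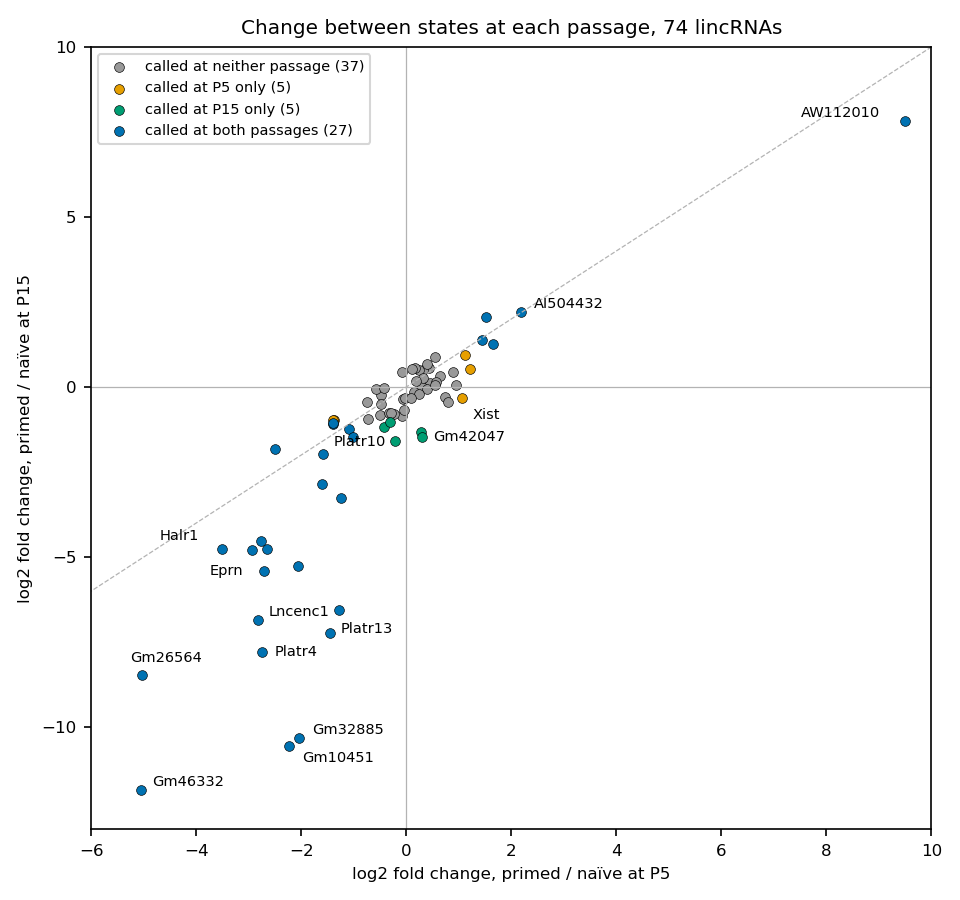
Log2 fold change between primed and naïve cells at P5 (x axis) and P15 (y axis) for the 74 lincRNAs, coloured by the passages at which they were called. The dashed line marks equal change, and the lincRNAs called lower at both passages lie mostly below it, with *Gm46332*, *Gm10451* and *Gm32885* without any count in primed P15 and *AW112010* without any count in naïve cells (such fitted values have no fixed size).

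*Lncenc1*, a lincRNA of naïve embryonic stem cells, reached the highest level of these after *Gm26917*. Its level was 234.2 and 226.1 CPM in naïve P5, 217.6 and 208.9 in naïve P15, 31.9 and 31.6 in primed P5 and 1.95 and 1.76 in primed P15, beside 0.383 in MEFs. The states did not overlap at either passage, and late primed cells were below early ones. The log2 fold change was -2.83 ± 0.05 (SE), adjusted p = 1.98e-28, at P5 and -6.85 ± 0.11 (SE), adjusted p = 8.53e-35, at P15. Between passages of primed cells it fell by 4.12 on the log2 scale (adjusted p = 5.27e-19), whereas it did not pass the test between passages of naïve cells (adjusted p = 0.118).

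*Platr10* was still present in late primed cells. It measured 97.3 and 91.3 CPM in naïve P5, 100.5 and 95.4 in naïve P15, 28.9 and 32.5 in primed P5, 22.7 and 27.5 in primed P15 and 0.0425 in MEFs. All primed libraries were below all naïve ones, and primed P15 libraries lay slightly below primed P5 libraries. The log2 fold change was -1.59 ± 0.06 (SE), adjusted p = 1.10e-19, at P5 and -1.97 ± 0.08 (SE), adjusted p = 1.09e-21, at P15, and the difference between them was -0.37 ± 0.11 (SE), adjusted p = 0.00905. Between primed passages the log2 difference was -0.32 (adjusted p = 0.00523). Neither of these differences with passage held throughout. With the feeder share taken off they were -0.23 and -0.13 (adjusted p = 0.196 and 0.356), with the DESeq2 Wald test their adjusted p was 0.0259 and 0.0371, without primed P15 replicate 1 they were -0.23 and -0.19 (adjusted p = 0.125 and 0.08996), and without primed P5 replicate 2 the adjusted p was 0.0702 and 0.0692. The difference between the states' changes also did not pass without either naïve P5 replicate or without naïve P15 replicate 1 (adjusted p = 0.0103, 0.0560 and 0.0298). Primed P15 cells thus retained 25.6% of the naïve level of *Platr10* and 0.870% of that of *Lncenc1*. *Platr22* kept 48.3% of its level at P15, with 5.62 and 6.83 CPM in naïve P5, 2.14 and 2.50 in primed P5, 6.63 and 5.56 in naïve P15 and 3.50 and 2.39 in primed P15, and its log2 fold change was -1.40 at P5 and -1.06 at P15 (adjusted p = 1.17e-06 and 2.07e-04). The P15 change of *Platr22* no longer passed the test after the feeder share was taken off (-0.96, adjusted p = 0.0158) or without primed P15 replicate 2 (-0.78, adjusted p = 0.0211).

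*Platr4* and *Platr13* were lost in late primed cells. *Platr4* had 9.0003 and 7.97 CPM in naïve P5 and 8.10 and 7.93 in naïve P15, 1.54 and 0.887 in primed P5, and 1 count over both primed P15 libraries. Its log2 fold change was -2.75 ± 0.23 (SE), adjusted p = 1.14e-11, at P5, and at P15 the ratio of naïve to primed was 281 with a 95% counting interval of 49.9 to 11129.8. *Platr13* had 5.37 and 3.86 CPM in naïve P5, 6.56 and 4.41 in naïve P15, 1.24 and 2.11 in primed P5 and also 1 count over both primed P15 libraries. The naïve and primed groups of both genes did not overlap at either passage, and neither gene had a count in MEFs.

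*Platr3* and *Platr11* were present at low levels. *Platr3* measured 4.03 and 5.20 CPM in naïve P5 and 0.696 and 0.610 in primed P5 (log2 fold change -2.77 ± 0.31 (SE), adjusted p = 3.32e-09), and 6.11 and 4.73 in naïve P15 and 0.344 and 0.114 in primed P15 (log2 fold change -4.53 ± 0.42 (SE), adjusted p = 8.72e-12). *Platr11* measured 6.61 and 6.14 CPM in naïve P5 and 1.29 and 0.887 in primed P5 (log2 fold change -2.50 ± 0.25 (SE), adjusted p = 3.62e-10), and 2.36 and 2.88 in naïve P15 and 0.344 and 1.14 in primed P15 (log2 fold change -1.82 ± 0.42 (SE), adjusted p = 2.38e-04). The P15 change of *Platr11* was -1.19 (adjusted p = 0.0270) without primed P15 replicate 1, -2.88 without primed P15 replicate 2 and -1.71 (adjusted p = 0.0207) after the feeder share was taken off. Between passages of naïve cells it fell by 1.27 on the log2 scale (adjusted p = 0.00106), the only member called lower there, and naïve P15 libraries lay between naïve P5 and primed libraries. Over all gene types, 30 genes named *Platr* were in the table. At P5, 17 of the 21 tested were called lower and *Platr25*, which GENCODE types as protein coding, was called higher, and at P15, 19 of 20 were called lower. The *Platr* genes were named for a drop on differentiation of embryonic stem cells, so that their direction here is not independent of that choice.

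**Figure D4:**
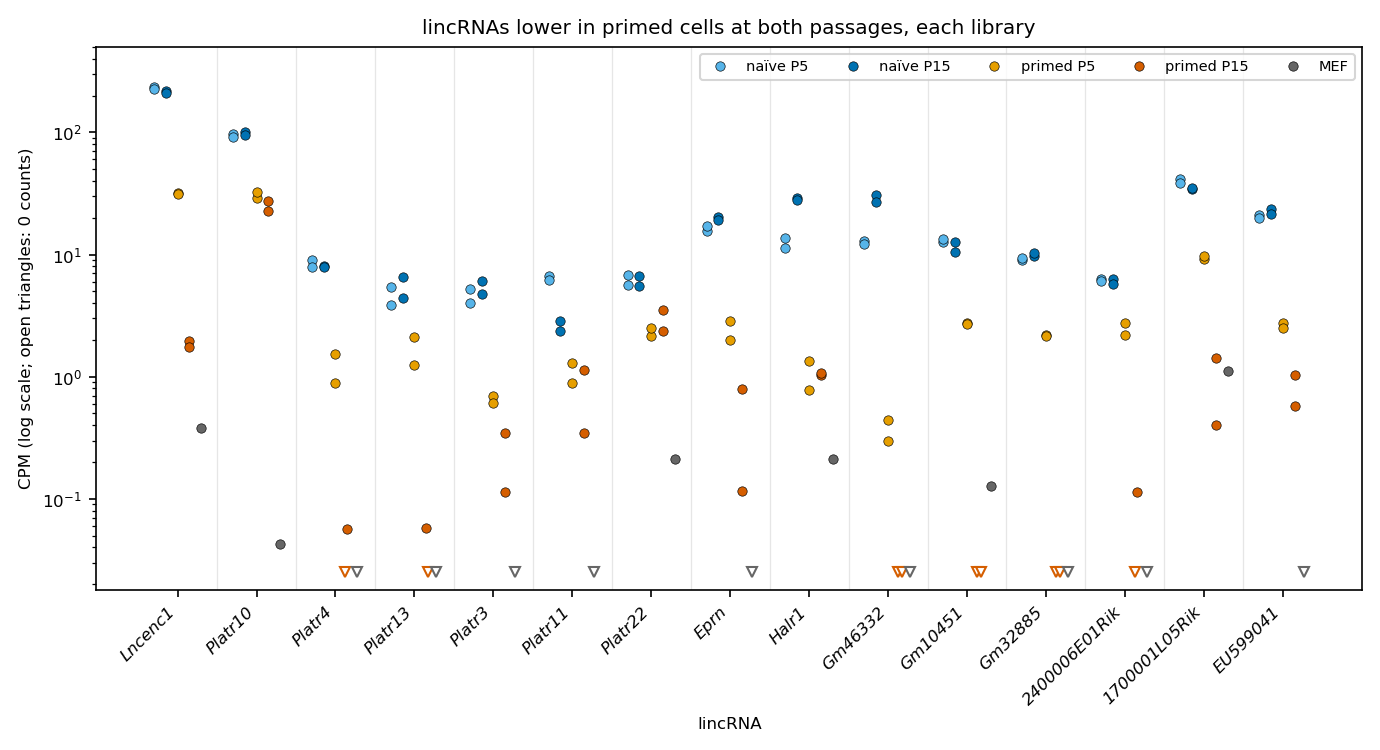
Level in each library, in CPM on a log scale, of 15 lincRNAs that were lower in primed cells at both passages. Points are libraries, coloured by group, and open triangles at the foot mark libraries with 0 counts, which for *Gm46332*, *Gm10451* and *Gm32885* are both primed P15 libraries.

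*Halr1* and *Gm46332* were called higher with passage in naïve cells. *Halr1* (chr6:52102949-52113684, plus strand) measured 13.6 and 11.4 CPM in naïve P5, 29.02 and 28.1 in naïve P15, 1.34 and 0.777 in primed P5, 1.03 and 1.08 in primed P15 and 0.213 in MEFs. The naïve groups did not overlap, and the primed groups did. It changed between naïve passages by 1.19 ± 0.11 (SE), adjusted p = 7.57e-06, on the log2 scale, and between states by -3.50 ± 0.22 (SE), adjusted p = 8.05e-15, at P5 and -4.76 ± 0.19 (SE), adjusted p = 8.71e-23, at P15. *Gm46332* measured 12.9 and 12.3 CPM in naïve P5, 30.8 and 26.7 in naïve P15, 0.298 and 0.444 in primed P5, and had no count in primed P15 or MEFs. Its change between naïve passages was 1.19 ± 0.11 (SE), adjusted p = 7.49e-06, on the log2 scale, and naïve P15 cells stood at least 167.7-fold higher than primed P15 cells, against a limit of 3 counts per library. Between naïve passages, 3 of 73 lincRNAs were called, *Halr1* and *Gm46332* higher and *Platr11* lower, against 1.13% of all 15683 genes tested, 0.414% higher and 0.721% lower. A further 6 lincRNAs passed the adjusted p at less than 2-fold, 4 higher and 2 lower.

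*Gm10451*, *Gm32885* and *2400006E01Rik* fell to the detection limit as well. *Gm10451* had 12.7 and 13.5 CPM in naïve P5, 12.7 and 10.5 in naïve P15, 2.73 and 2.72 in primed P5 and no count in primed P15, at least 67.6-fold lower than naïve P15. *Gm32885* had 8.95 and 9.30 CPM in naïve P5, 9.65 and 10.2 in naïve P15, 2.19 and 2.16 in primed P5 and no count in primed P15, at least 58.04-fold lower than naïve P15. *2400006E01Rik* had 6.27 and 6.04 CPM in naïve P5, 6.26 and 5.76 in naïve P15, 2.19 and 2.77 in primed P5 and 2 counts in all in primed P15, and the naïve to primed ratio at P15 was 105 with a 95% counting interval of 28.6 to 873. In each of the 3 genes primed P5 lay apart from both naïve P5 and primed P15, and the test between primed passages was passed, with adjusted p = 2.54e-09, 1.72e-08 and 4.15e-08. *Gm26564* was nearly absent already in primed P5, with 8.65 and 7.47 CPM in naïve P5, 0.149 and 0.333 in primed P5, 14.2 and 11.3 in naïve P15 and 1 count in all in primed P15.

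*Eprn* (ephemeron), known from the exit of embryonic stem cells from the naïve state, measured 15.5 and 17.2 CPM in naïve P5, 2.83 and 1.997 in primed P5, 20.3 and 19.1 in naïve P15 and 0.115 and 0.795 in primed P15, with no count in MEFs. The log2 fold change was -2.71 ± 0.16 (SE), adjusted p = 5.72e-15, at P5 and -5.42 ± 0.27 (SE), adjusted p = 2.37e-19, at P15, and the states did not overlap. *1700001L05Rik* measured 41.8 and 38.2 CPM in naïve P5, 9.14 and 9.71 in primed P5, 34.6 and 35.2 in naïve P15 and 0.402 and 1.42 in primed P15 (log2 fold change -2.05 and -5.26). *EU599041* measured 21.03 and 19.9 CPM in naïve P5, 2.73 and 2.50 in primed P5, 23.4 and 21.4 in naïve P15 and 0.574 and 1.02 in primed P15 (log2 fold change -2.93 and -4.80). In both genes late primed cells were below early primed cells (adjusted p = 3.25e-11 and 1.05e-04). *Gm26917* was lower in primed cells at both passages (log2 fold change -1.39 and -1.08) and lower at P15 in both states, with 277.3 and 277.2 CPM in naïve P5, 152.5 and 147.1 in naïve P15, 107.1 and 100.2 in primed P5, 72.5 and 69.9 in primed P15 and 258.1 in MEFs. Once the feeder share was removed, its log2 fold change at P15 was -3.99. In the primed P15 libraries *Gm26917* stood at 28.1% and 27.1% of its MEF level by TMM-scaled CPM. The share taken off was 27.9% and 28.1% by CPM of the column total, which is another scale. The size of that P15 change depends on the share chosen and is therefore uncertain.

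Fewer of the 74 lincRNAs were called higher in primed cells than lower. The share called higher was 10.8% at P5, beside 13.5% of all genes tested, and 6.76% at P15, beside 12.2%. The 5 called higher in primed cells at both passages were *4930516B21Rik*, *Gm26809*, *AI504432*, *Gm43154* and *AW112010*, the last 3 being named here because they complete the count, after their values were seen. *4930516B21Rik*, whose start lies 113 bases from the oppositely transcribed *Exog*, measured 10.3 and 10.6 CPM in naïve P5, 28.2 and 27.1 in primed P5, 10.02 and 8.12 in naïve P15, 24.4 and 22.7 in primed P15 and 0.510 in MEFs. The primed libraries were all above the naïve ones, with a difference of 1.44 ± 0.10 (SE), adjusted p = 9.78e-14, on the log2 scale at P5 and 1.37 ± 0.13 (SE), adjusted p = 2.20e-11, at P15. *Exog*, which encodes a mitochondrial nuclease, did not pass the test, with differences of -0.12 (adjusted p = 0.330) and -0.31 (adjusted p = 0.0382) on that scale.

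*Gm26809* measured 5.62 and 3.61 CPM in naïve P5, 13.2 and 15.3 in primed P5, 4.35 and 3.58 in naïve P15, 9.64 and 9.37 in primed P15 and 7.66 in MEFs, with log2 fold changes of 1.65 and 1.26 and no overlap between states. Its neighbour *Lsm8*, which starts 4359 bases away and encodes a subunit of a complex that binds U6 RNA, differed by -0.01 and 0.09 (adjusted p = 0.914 and 0.309). *AW112010*, a transcript known to be induced by inflammatory signals, had no count in any naïve library, 4.12 and 5.05 CPM in primed P5 and 1.66 and 1.87 CPM in primed P15, and 1 count in MEFs. Primed cells were thus at least 30.8-fold higher at P5 and at least 8.57-fold higher at P15, and the level fell between primed passages (-1.40 ± 0.25 (SE), adjusted p = 2.34e-05). *AI504432* rose by 2.19 and 2.21 and *Gm43154* by 1.52 and 2.06 on the log2 scale.

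Some broadly expressed lincRNAs were highest, among naïve and primed cells, in early primed cells. *Malat1*, the nuclear speckle RNA, measured 239.7 and 217.2 CPM in naïve P5, 221.0 and 191.9 in naïve P15, 361.6 and 383.2 in primed P5, 154.4 and 186.3 in primed P15 and 443.1 in MEFs. Primed P5 was above all other naïve and primed libraries, and primed P15 was below the naïve libraries of its passage. The log2 fold change was 0.74 ± 0.04 (SE), adjusted p = 8.45e-16, at P5 and -0.29 ± 0.07 (SE), adjusted p = 6.61e-04, at P15, and the difference between the passages was -1.01 ± 0.09 (SE), adjusted p = 2.81e-10. *Neat1*, the scaffold of paraspeckles, measured 14.2 and 13.4 CPM in naïve P5, 12.3 and 14.8 in naïve P15, 23.5 and 23.3 in primed P5, 10.3 and 9.94 in primed P15 and 148.1 in MEFs. It followed the order of *Malat1*, with a log2 fold change of 0.79 ± 0.10 (SE), adjusted p = 2.16e-08, at P5 and -0.43 ± 0.14 (SE), adjusted p = 0.00900, at P15, and a difference between passages of -1.21 ± 0.17 (SE), adjusted p = 7.83e-07. Between primed passages *Malat1* fell by 1.16 and *Neat1* fell by 1.24 on the log2 scale (adjusted p = 5.12e-15 for *Malat1* and 1.78e-10 for *Neat1*). The lower level at P15 did not hold under several settings in either gene. It no longer passed the test with library size alone (log2 fold change -0.18 for *Malat1* and -0.33 for *Neat1*, adjusted p = 0.0347 and 0.0492), with the DESeq2 Wald test (adjusted p = 0.130 and 0.0647) or without primed P15 replicate 1 (log2 fold change -0.13 and -0.43, adjusted p = 0.121 and 0.0414). It was also lost for *Malat1* without naïve P15 replicate 1 (-0.20, adjusted p = 0.01995), and for *Neat1* without naïve P15 replicate 2 (-0.32, adjusted p = 0.127), without primed P15 replicate 2 (-0.38, adjusted p = 0.0765) and with no count filter (adjusted p = 0.0110). The rise at P5 and the fall between primed passages passed under each of these settings that applied to them.

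*Xist*, which coats the inactive X chromosome, measured 21.1 and 19.7 CPM in naïve P5, 20.5 and 21.2 in naïve P15, 40.6 and 42.7 in primed P5, 15.5 and 18.1 in primed P15 and 189.5 in MEFs. Primed P5 was the high group, the naïve groups overlapped, primed P15 lay somewhat below them and MEFs stood far above all of them. It was called higher in primed cells at P5 (1.06 ± 0.08 (SE), adjusted p = 3.80e-13), did not pass the test at P15 (-0.32 ± 0.12 (SE), adjusted p = 0.0165) and fell between primed passages (-1.34 ± 0.09 (SE), adjusted p = 9.95e-13). *Xist* stood at 10.42% to 11.2% of its MEF level in naïve libraries, 21.4% to 22.5% in primed P5 and 8.18% to 9.56% in primed P15, and *Neat1* at 6.71% to 15.9% over all 8. These percentages are of TMM-scaled CPM. The median fibroblast marker stood at 18.02% to 28.1% of its MEF level by CPM of the column total. The scales differ, so that the genes and the marker median are not compared library by library. With the feeder share taken off, neither gene had enough counts to be tested at P15. The difference between passages no longer passed the test (-10.8 for *Xist* and -7.17 for *Neat1*, adjusted p = 0.99994 for both). Under this setting the edgeR test was still passed by the rise at P5 (adjusted p = 2.74e-09 for *Xist* and 4.53e-04 for *Neat1*). It was also passed by the fall between primed passages (adjusted p = 1.61e-06 and 0.00357). The sizes fitted after the subtraction have no fixed value, since groups were left with few counts. *Malat1* kept its direction, at 1.03 on the log2 scale for P5 and -0.91 for P15. The median fibroblast marker stood at 18.02% and 18.5% in the naïve P5 libraries and at 19.2% and 18.1% in the primed P5 libraries. By CPM of the column total as well, the summed markers differed more. They were 10638 and 10776 CPM in the naïve P5 libraries and 7972 and 7793 CPM in the primed P5 libraries. Single markers ranged from 6.03% to 80.3% of their MEF level in naïve P5 and from 3.23% to 271% in primed P5. Whether the feeder share differed between the states at P5 was not tested.

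*Gm42047* showed the same order with a larger drop. It measured 395.1 and 404.0 CPM in naïve P5, 479.8 and 469.6 in primed P5, 319.1 and 316.6 in naïve P15, 125.7 and 128.4 in primed P15 and 281.4 in MEFs. No groups overlapped, and primed P15 was lowest. The log2 fold change was 0.28 ± 0.03 (SE), adjusted p = 1.99e-08, at P5, -1.33 ± 0.06 (SE), adjusted p = 4.91e-21, at P15 and -1.93 ± 0.05 (SE), adjusted p = 6.89e-22, between primed passages. Its coding neighbour *Klhdc4*, whose start is 3678 bases away, differed by -0.70 at P5 and -0.57 at P15 and rose by 0.44 between primed passages, where the lincRNA fell. The change of *Gm42047* was 0.48 at P5 with library size alone and -2.13 at P15 once the feeder share was removed.

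**Figure D5:**
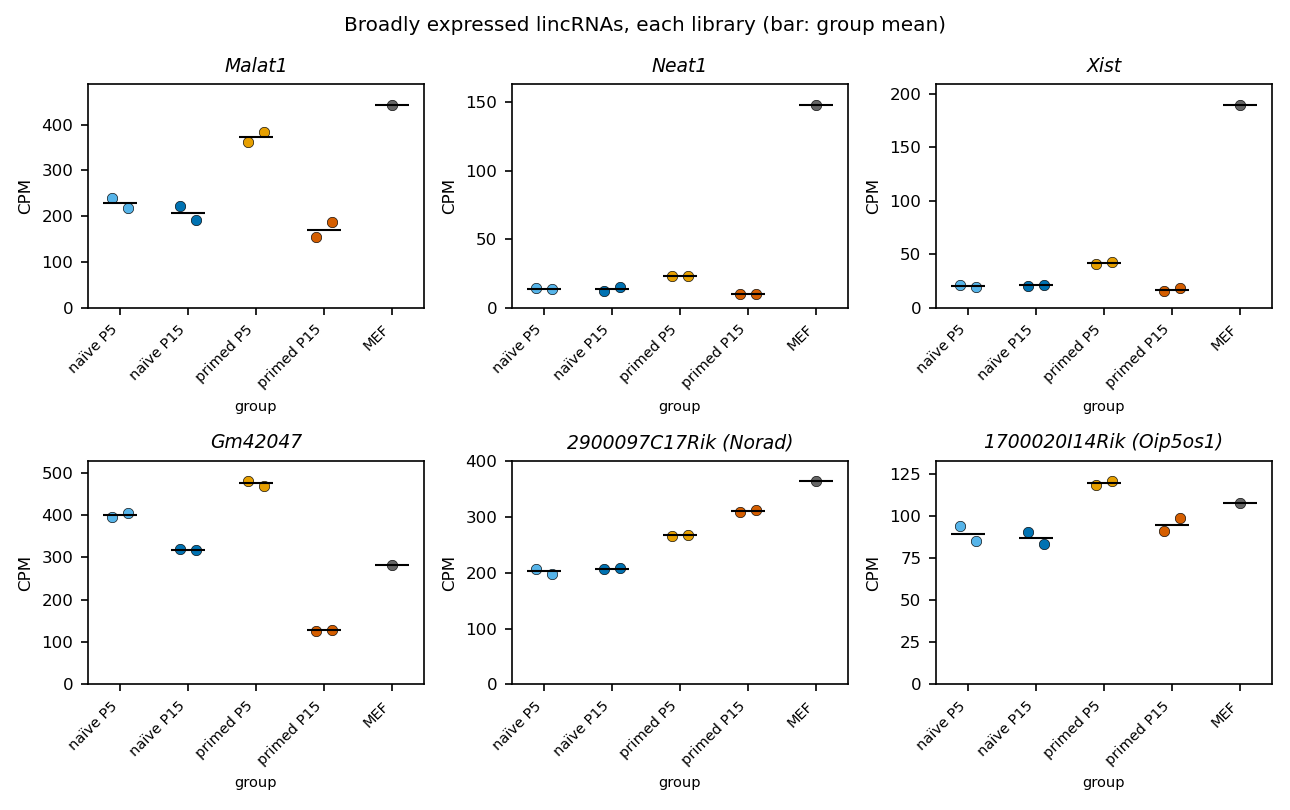
Level in each library, in CPM on a linear scale from 0, of 6 broadly expressed lincRNAs, with a bar at the group mean. *Malat1*, *Neat1*, *Xist* and *Gm42047* peak in primed P5 among naïve and primed cells, and *Malat1*, *Neat1*, *Xist* and *2900097C17Rik* are highest in the MEF library.

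*2900097C17Rik*, which RefSeq names *Norad* and which is known to bind Pumilio proteins, measured 206.8 and 198.5 CPM in naïve P5, 207.0 and 207.9 in naïve P15, 266.0 and 268.0 in primed P5, 309.9 and 312.0 in primed P15 and 364.3 in MEFs. Primed libraries were above naïve ones at both passages by less than 2-fold, with a log2 fold change of 0.43 ± 0.04 (SE), adjusted p = 1.63e-11, at P5 and of 0.57 ± 0.06 (SE), adjusted p = 5.34e-11, at P15. *1700020I14Rik* (*Oip5os1*, also called Cyrano), known for a site that directs the decay of a microRNA, measured 94.4 and 85.2 CPM in naïve P5, 118.5 and 120.9 in primed P5, 90.8 and 83.3 in naïve P15 and 91.2 and 98.8 in primed P15. It rose at P5 (0.45 ± 0.05 (SE), adjusted p = 2.23e-09) and not by the test at P15 (0.12 ± 0.07 (SE), adjusted p = 0.140).

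Among the members, 5 host snoRNAs and *Mir17hg* hosts the microRNAs of the miR-17-92 cluster. *Snhg12* measured 23.8 and 24.4 CPM in naïve P5, 17.3 and 18.03 in primed P5, 32.3 and 32.2 in naïve P15 and 11.9 and 16.6 in primed P15, and was called lower in primed cells at P15 (-1.19 ± 0.12 (SE), adjusted p = 6.14e-11). *Epb41l4aos* had means of 29.7 and 23.2 CPM at P5 and 33.5 and 20.003 CPM at P15 and was lower by less than 2-fold (adjusted p = 0.00127 at P5 and 5.81e-08 at P15). Its P5 change of -0.33 on the log2 scale no longer passed the test with library size alone (-0.13, adjusted p = 0.195), without primed P5 replicate 1 (-0.20, adjusted p = 0.109), with the DESeq2 Wald test (adjusted p = 0.0210) or with no count filter (adjusted p = 0.0179). *Snhg6* and *Snhg20* passed the test at P15 (log2 fold change -0.32 and -0.79, adjusted p = 0.00145 and 0.00175), and the difference between passages did not pass in either (adjusted p = 0.0524 and 0.172). Both P15 changes were lost with the DESeq2 Wald test (adjusted p = 0.0142 and 0.0208) and without primed P15 replicate 1 (-0.30 and -0.55, adjusted p = 0.0118 and 0.0748). That of *Snhg6* was also lost without naïve P15 replicate 2 or primed P15 replicate 2 or with library size alone (adjusted p = 0.0363, 0.0155 and 0.0312), and that of *Snhg20* without naïve P15 replicate 1 (adjusted p = 0.0121). *Snhg18* differed by 0.43 ± 0.15 (SE), adjusted p = 0.0125, at P15, and passed the test there without primed P15 replicate 1 (0.65, adjusted p = 0.00124), without naïve P15 replicate 2 (0.53, adjusted p = 0.00930) and with library size alone (0.54, adjusted p = 0.00371). With the feeder share taken off, the P15 change was -4.16 for *Snhg12*, -0.54 for *Snhg6*, -2.10 for *Snhg20* and -1.59 for *Pvt1*. The share was larger in primed P15 than in naïve P15, and its effect on these sizes was not tested. *Mir17hg* measured 12.7 and 12.3 CPM in naïve P15 and 7.17 and 6.76 in primed P15, and changed by -0.85 ± 0.16 (SE), adjusted p = 1.21e-05, at P15 and -0.08 ± 0.13 (SE), adjusted p = 0.585, at P5. *Pvt1*, which lies beside *Myc*, was called lower at P15 (-1.04 ± 0.17 (SE), adjusted p = 2.34e-06) and did not pass at P5 (-0.32 ± 0.14 (SE), adjusted p = 0.0508).

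Over the 15 snoRNA hosts tested of any gene type, 8 were lower and 3 higher at P5 by adjusted p alone, and 11 were lower and 1 higher at P15, where 31.1% and 31.2% of all genes were lower and higher at P5 and 28.4% and 28.2% at P15. With the 2-fold rule added, 2 hosts were called higher and 0 lower at P5, and 0 higher and 2 lower at P15. The median log2 fold change of the hosts was -0.27 at P5 and -0.66 at P15. Of the 10 proteins of snoRNA particles listed, such as fibrillarin (*Fbl*) and dyskerin (*Dkc1*), 9 were lower at P5 and 7 at P15 by adjusted p alone, with medians of -0.69 and -0.61. Of the 11 paraspeckle proteins listed, such as *Nono* and *Sfpq*, 9 were lower at P5 and 4 at P15, none by 2-fold, with medians of -0.25 and -0.16, while *Neat1* was higher at P5. Of the 8 genes listed for proteins that bind or regulate *Xist*, 6 were lower and 1 higher at P5 and 7 and 1 at P15, and *Rlim*, an activator of *Xist*, was the 1 called by 2-fold, lower at P15 (log2 fold change -1.14, adjusted p = 2.80e-17). Of the 15 genes of nuclear RNA turnover, which include the exosome, 11 were lower at P5 (median -0.47) and 6 at P15, where 2 were higher. Of the 10 genes of nonsense-mediated decay, 8 were lower and 1 higher at P5 and 3 and 1 at P15, and of the 2 Pumilio genes 1 was lower at each passage. These lists are small, and their counts are given beside those of all genes with no test of the list.

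Between passages of primed cells, 21 of 71 lincRNAs were called, 19 lower and 2 higher, against 11.6% of all 15957 genes tested in either direction, 8.43% lower and 3.18% higher. Their median log2 fold change was -0.48. The comparisons share libraries, so that a high value in primed P5 enters both the rise against naïve P5 and the fall to primed P15. The 2 that rose were *Zfp469* and *Gm17501*, named after their values were seen. RefSeq types *Zfp469* as protein coding. It measured 2.04 and 2.44 CPM in primed P5, 5.45 and 5.57 in primed P15 and 54.4 in MEFs, and *Gm17501* 3.33 and 2.05, 5.97 and 5.51 and 49.8. Both were highest in MEFs, and the summed fibroblast markers rose in the same direction, from 6961 to 16480 CPM. With the feeder share taken off, 1 lincRNA in place of 2 was called higher, and the same held without primed P5 replicate 2 or without primed P15 replicate 1.

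In the test of the difference between the passages, made over all 8 libraries, 19 of 74 lincRNAs were called, all 19 with a lower primed-to-naïve fold at P15 than at P5, against 4.8% of all 16926 genes tested in that direction, 2.36% in the other and 7.16% in either. Of these 19, 15 were not at 5 CPM in all 4 groups. Among the other 346 lincRNAs tested, 22 were called, all of them also lower. The call covers lincRNAs that were lost further with passage, such as *Lncenc1* (-4.01 ± 0.13 (SE), adjusted p = 4.46e-21) and *Eprn* (-2.69 ± 0.42 (SE), adjusted p = 5.57e-06, and -4.61 without primed P15 replicate 2), as well as *Malat1*, *Neat1*, *Xist* and *Gm42047*, which were raised at P5.

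MEFs gave a last comparison, with a single library and no test. A total of 16 lincRNAs were higher in MEFs than in every naïve and primed group. The 6 highest were *Malat1*, *2900097C17Rik*, *Xist*, *Neat1*, *1810058I24Rik* with 71.4 CPM and *Snhg6* with 56.99 CPM, and 22 lincRNAs stood under 10% of their highest group in MEFs.

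For 67 lincRNAs both the member and its nearest protein-coding gene, by the distance between starts, were tested at P5. The pairs that were both called were named after their values were seen. Among the 15 pairs within 5 kb, 4 lincRNAs were called at P5 and in 1 pair both genes were, namely *AI504432* and the potassium channel gene *Kcna3*. Among the 31 pairs at 5 to 50 kb, 3 pairs were both called, in the same direction in each. These were *Platr3* with *Plcb4*, *Gm43154* with *Podxl* and *2400006E01Rik* with *Jade1*. *Podxl*, which encodes podocalyxin, a sialomucin of the cell surface, had means of 42.7 CPM in naïve P5 and 509 CPM in primed P5, and of 31.5 and 198 CPM at P15, while *Gm43154* at 41209 bases from it had 1.69 and 4.76 CPM at P5.

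*Jade1*, which encodes a subunit of a histone acetyltransferase complex, lies 27257 bases from *2400006E01Rik* and 62539 bases from *Platr4*, start to start. Its means were 301.5 CPM in naïve P5, 77.4 in primed P5, 302.1 in naïve P15 and 45.6 in primed P15, a log2 fold change of -1.93 at P5 and -2.74 at P15. *Jade1* and both lincRNAs were thus lower in primed cells at both passages, whereas primed P15 cells kept 45.6 CPM of the coding gene and at most 2 counts of either lincRNA. Beyond 50 kb, 5 of 21 pairs were both called at P5, with 2 in opposite directions, *Platr11* with *Eomes* and *Gm26526* with *Zfp619*. *Eomes*, a T-box factor of the primitive streak, rose from 6.45 to 39.1 CPM at P5 and from 4.39 to 55.1 CPM at P15, where *Platr11*, 72113 bases away, fell. Among pairs with a called lincRNA at P5, the nearest coding gene was also called in 1 of 4 within 5 kb, in 3 of 12 at 5 to 50 kb and in 5 of 11 beyond 50 kb, beside 22.3% of all genes tested.

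Of other features that the choice did not use, 8 of the 74 members (10.8%) start within 1 kb of an oppositely transcribed coding gene, against 18.95% of the other 343 lincRNAs that were tested and annotated. Hosts of small RNAs made up 8.11% of the members and 5.54% of the others. The median merged exon length was 3032 bases for the members and 1859 for the others, which bears on counts since a longer RNA gives more fragments at the same number of molecules.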

How the data were processed

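The authors deposited a table of raw counts per gene for 9 libraries. Per the labels and the methods, poly(A) RNA was made into libraries with a kit that does not mark strand, reads were trimmed with Cutadapt, aligned to mm10 with HISAT2 (up to 20 alignments a read) and counted with featureCounts, with strand and multimapping settings not given in the sources used here. Members and lists were chosen with earlier results of these data known. Genes with at least 10 counts in 2 libraries of a comparison were tested with edgeR 4.0.16 in R 4.3.3 (TMM, quasi-likelihood, 2-sided, Benjamini-Hochberg over all genes), with calls at 2-fold or more and an adjusted p under 0.01. The difference between passages was an interaction term over 8 libraries. The procedure was tested on simulated counts. Genes named are the members of role lists, up to 6 per direction with the largest change at 10 CPM or more, up to 6 per direction with the largest interaction, 8 with the highest level per kb, 6 highest in MEFs, 3 on each side of the level threshold, and coding neighbours within 5 kb. Of 54232 gene identifiers, 67 had no name in GENCODE M21, and 92 spike-in entries held 0 counts. Alternatives were DESeq2 1.42.0 (size factors and Wald test), library size alone, no count filter, a fit of all 8 libraries, the feeder share taken off, a replicate block, other level rules and each replicate left out. Promoters were credited to RefSeq (GRCm38.p6) by symbol. Coordinates are 1-based. The result of 1 coding neighbour is not reported here.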

Additional observations from a re-analysis of the deposited data

Results flagged for a closer look

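The change between states differed between passages by 2-fold or more for 15 of the named lincRNAs, by the interaction term of edgeR's quasi-likelihood test over 8 libraries, with a lower primed-to-naïve fold at P15 in these 15. Below 2-fold, 5 more passed, *1700020I14Rik*, *Snhg12*, *Mir17hg* and *Platr10* lower and *Gm26917* higher. *Lncenc1*, the most abundant of those lost with passage, differed by -4.01 ± 0.13 (SE), adjusted p = 4.46e-21, on the log2 scale. *1700001L05Rik* differed by -3.19, *Eprn* by -2.69, *EU599041* by -1.86 and *Halr1*, which rose in naïve cells, by -1.24. The difference of *Halr1* was -0.81 (adjusted p = 0.232) without primed P5 replicate 1, also did not pass after the feeder share was taken off (adjusted p = 0.0410) or the DESeq2 Wald test (adjusted p = 0.0101), and kept its side of the threshold in 2 of 8 fits with a library left out. Without primed P15 replicate 2, that of *Eprn* was -4.61 and that of *2400006E01Rik* was -8.44. *Platr13*, *2400006E01Rik* and *Platr4*, with 1 or 2 counts in primed P15, differed by -5.81, -5.26 and -5.06. For *Gm10451*, *Gm32885* and *Gm46332*, which had no count in primed P15, the fitted values of -8.44, -8.42 and -6.94 depend on the prior count and have no fixed size. *Gm42047*, *Xist*, *Neat1* and *Malat1*, which were highest in primed P5, differed by -1.60, -1.37, -1.21 and -1.01. The adjusted p of the 15 ranged from 4.46e-21 to 0.00824.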

How the results depend on the processing

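Of 1948 values of the named lincRNAs under the alternatives, 1824 kept their direction and their side of the threshold, 84 no longer passed the test, 39 passed it newly and 1 reversed. The reversed value was the difference between passages of *Gm26917*, which became -2.13 (adjusted p = 1.79e-06) with the feeder share taken off, from 0.32, and the cause was not tested. The median log2 fold change at P5 became 0.048 with library size alone, -0.067 with the feeder share taken off, -0.055 for the lincRNAs at 10 CPM and -0.23 for those chosen by TMM-scaled CPM. At P15 these were -0.37, -0.77, -0.36 and -0.68, and between primed passages they were -0.61 with library size alone and -0.34 at 10 CPM. At 10 CPM, 16 lincRNAs were called at P5 (3 higher, 13 lower), 17 at P15 (2 and 15), 12 between primed passages (1 and 11) and 0 lower between naïve passages, since fewer genes were counted. Of those chosen by TMM-scaled CPM, 3 were called higher at P15. Between primed passages 1 was called higher with library size alone and with the feeder share taken off. With each replicate left out in turn, the medians ranged from -0.24 to -0.10 at P5, -0.47 to -0.32 at P15, 0.0054 to 0.042 between naïve passages and -0.57 to -0.33 between primed passages. Calls then ranged from 27 to 31 at P5 (6 to 8 higher, 21 to 24 lower), 24 to 31 at P15 (4 to 6 and 19 to 27), 15 to 21 between primed passages (1 to 2 and 14 to 19) and 16 to 20 for the difference between passages, and the 3 calls between naïve passages remained 3. A lone library was assumed to vary like the other group.

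Samples of one number did not deviate together in every comparison (correlations of -0.08, -0.11, 0.10 and 0.10), so the replicate number was not taken to pair them. With a replicate block, 31 lincRNAs were called at P5 (8 higher, 23 lower), 32 at P15 (5 and 27), 3 and 21 between passages and 19 for the difference. With the block, the P15 changes of *Malat1* and *Neat1* and the difference of *Platr10* no longer passed the test (adjusted p = 0.0114, 0.0212 and 0.0167). With the pairing crossed at P15, chosen after seeing the data, 32 were called (5 and 27). Depth limits the genes at 3 counts or fewer, whose folds are bounds or ratios.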
